A study of Mus musculus with 5 samples.

Results

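The IFIT genes encode interferon-induced proteins with tetratricopeptide repeats, and 5 of them were followed here across single group 2 innate lymphoid cells (ILC2s) of the mouse lung: *Ifit1*, *Ifit2*, *Ifit3*, *Ifit3b* and *Ifit1bl1*. They were chosen by symbol, and all 5 were among the 27726 genes common to the 5 libraries. Every library came from sorted lung cells (Lin- ST2+ CD127+ Thy1.2+ CD45+) of female WT C57BL/6 mice, 5 per group and 4 to 8 weeks old by the methods, and was made with 10x Genomics 3' chemistry. The naïve library held freshly isolated ILC2s of mice without a tumour. The ta-non-activated libraries held fresh ILC2s of mice carrying a subcutaneous TC1 tumour, a mouse lung epithelial line made tumorigenic with viral and oncogenic genes, at week 2 (wk2) and week 3 (wk3) after implantation. The ta-activated libraries held ILC2s of tumour carriers at the same times that were then cultured for a week with IL-33 and TSLP, and with rhIL-2 by the methods. Culture and cytokines come together in this design, so the effect of either cannot be told apart, and no library of cultured naïve cells was analysed here.

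IFIT proteins are among the most strongly interferon-inducible products of mammalian cells. *Ifit1* encodes a protein that binds viral RNA lacking the methylations of a mature cap, and *Ifit2* and *Ifit3* encode related proteins. *Ifit3b* is a close copy of *Ifit3*, and *Ifit1bl1* belongs to the *Ifit1*-like genes of the mouse. Type I and type III interferons act through JAK kinases on a complex that holds STAT2 and IRF9 and binds interferon-stimulated response elements (ISREs) in the promoters of such genes, and IRF factors can bind the same element.

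The 5 genes lie in 1 cluster on chromosome 19 of the GRCm38 build, within 99316 bases (chr19:34550694-34650009, GENCODE M21). From left to right these are *Ifit2* (chr19:34550694-34576419, + strand), *Ifit3* (chr19:34583531-34588731, +), *Ifit1bl1* (chr19:34592891-34601956, -), *Ifit3b* (chr19:34607970-34613401, +) and *Ifit1* (chr19:34640871-34650009, +). The annotation gives *Ifit1*, *Ifit3*, *Ifit3b* and *Ifit1bl1* 2 exons each and *Ifit2* up to 4. *Ifit1bl2*, a related gene that is not one of the 5, lies just before *Ifit1* on the other strand, and 127 bases separate the starts of this pair. The longest transcripts of *Ifit3* and *Ifit3b* were identical at 1663 of 1697 aligned bases (98.0%). Of the 511 stretches of 90 bases in the last 600 bases of *Ifit3*, the part nearest to where 3' libraries are read, 27 (5.28%) also occurred in *Ifit3b*, and none of those of the other members occurred in another of these 6 genes. Counts of *Ifit3* and *Ifit3b* are therefore uncertain to the extent that reads could not be placed.

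The promoters were searched for a short run of letters, which 4 of the 5 members held. The core of an ISRE, a pair of GAAA letters with any 2 bases between them (TTTC on the other strand), was searched on both strands in the RefSeq promoter windows of GRCm38.p6, which run from 250 bases before to 50 bases after each start. It occurred in 1131 of 32851 windows (3.44%). The windows of *Ifit1*, *Ifit3* and *Ifit3b* held 2 matches each, the 2 windows of *Ifit1bl1* held 1 match each, and neither window of *Ifit2* held these letters. Of 40 listed interferon targets other than the 5, 29 had a promoter in the table and 17 of these held a match. The stretches around the matches are printed 5′ to 3′ on the strand of the gene, with the matched letters in capitals, because 4 of the 5 members hold such a match.
Ifit1, chr19:34640765-34640833, + strand: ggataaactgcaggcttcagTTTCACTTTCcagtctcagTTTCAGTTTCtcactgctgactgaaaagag
Ifit3, chr19:34583353-34583436, + strand: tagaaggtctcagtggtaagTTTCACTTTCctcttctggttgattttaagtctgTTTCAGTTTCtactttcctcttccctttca
Ifit3b, chr19:34607749-34607832, + strand: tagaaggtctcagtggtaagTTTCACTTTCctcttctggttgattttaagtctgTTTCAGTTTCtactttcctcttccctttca
Ifit1bl1, chr19:34602043-34602092, - strand: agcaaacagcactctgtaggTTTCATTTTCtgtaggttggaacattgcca
The *Ifit3* and *Ifit3b* stretches differed at 0 of 84 bases, and their first matches begin at -156 and -188 relative to the respective starts. The *Ifit1* stretch is also the promoter of *Ifit1bl2* read on the opposite strand, so the 2 genes have the same 2 matches between them. A match is a description of the letters and was not measured as a binding site here.

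A barcode counted as a cell when 200 or more genes were detected and mitochondrial transcripts made up less than 5% of its UMIs. The libraries then held 1601 to 6389 cells and 9394957 to 61830293 UMIs (unique molecular identifiers, 1 for each captured RNA molecule), with medians of 4396 to 16090 UMIs per cell. Pairs of libraries shared 1 to 8 cell barcodes, at most 0.375% of the smaller library. Levels are given as CPM, the UMIs of a gene scaled to the same total in every library. In the library labelled wk3 ta-non-activated the 10 ILC2 markers summed to 1775 CPM, against 8336 to 12044 CPM in the other 4. The wk2 ta-non-activated sum was mostly *Il13* (8861 CPM) and *Il5* (1224 CPM). *Il1rl1* (82.9 against 56.3 CPM), *Il7r*, *Thy1* and *Rora* were higher in the wk3 than in the wk2 fresh library. *Gata3* (189 against 336 CPM), *Il2ra*, *Areg* and *Id2* were lower. The wk3 ta-non-activated library stood apart from its label in the sum of 9 CD3 and TCR genes, 6746 CPM against 305 to 1238 CPM in the other 4. Only *Trac* was not highest there, at 9.37 CPM against 16.4 CPM in the naïve library. After thinning each cell to 2000 UMIs, 61.8% of wk3 ta-non-activated cells held UMIs of 3 or more of those 9 genes. The share was 12.6% in the naïve, 0.995% in the wk2 ta-non-activated, 4.25% in the wk2 ta-activated and 1.86% in the wk3 ta-activated library. Among listed markers of other cells, *Ms4a1* (B cells), *Itgax* (myeloid cells) and *S100a8* (neutrophils) were at or below 0.11 CPM in each library. The plasmacytoid dendritic marker *Siglech* was at or below 0.016 CPM. Other genes of these lists were higher in the wk3 ta-non-activated library, with *Cd79b* (B cells) at 23.1 CPM, *Lyz2* (myeloid) at 13.4 CPM and *Ccr9* (plasmacytoid dendritic) at 69.2 CPM. The whole lists of NK or ILC1 (4 genes), B (3), myeloid (4), epithelial (3), endothelial (3) and neutrophil (2) markers summed to at most 82.3 CPM in any library. The 3 plasmacytoid dendritic markers summed to 63.3, 6.08 and 111 CPM in the naïve, wk2 and wk3 fresh libraries and to 15.3 and 26.8 CPM after culture, and the 3 mast cell and basophil markers to at most 121 CPM, in the wk2 ta-activated library. The part of these cells in the IFIT levels was not tested.

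In the fresh libraries the IFIT genes were barely detected, and after culture each was higher in both weeks. *Ifit1*, the most abundant member, was measured at 1.70 CPM in the naïve library (95% Poisson interval 1.28 to 2.21), 1.5 CPM (1.12 to 1.98) at wk2 and 10.2 CPM (8.28 to 12.5) at wk3 of the ta-non-activated libraries. The ta-activated libraries stood at 268 CPM (263 to 272) at wk2 and 707 CPM (701 to 714) at wk3. Both cultured libraries thus lay above every fresh library, and the intervals cover counting error only.

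*Ifit3* showed the same order. Its levels were 0.340 CPM in the naïve, 0.241 CPM in the wk2 ta-non-activated and 1.81 CPM in the wk3 ta-non-activated library. After culture 130.4 CPM were measured at wk2 and 407 CPM at wk3. The close copy *Ifit3b* stood at 0.123, 0.0602 and 0.213 CPM in the same fresh libraries, from 4, 2 and 2 UMIs. The cultured libraries gave 18.0 and 66.4 CPM of *Ifit3b*, from 1034 and 4103 UMIs.

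*Ifit2* was measured at 0.833 CPM in the naïve library, 0.542 CPM at wk2 and 3.19 CPM at wk3 without culture, and at 17.3 CPM and 42.1 CPM at wk2 and wk3 after culture. *Ifit1bl1* was all but absent from 2 fresh libraries, with 2 UMIs (0.0617 CPM) in the naïve library and none at wk2, where 3 counts would be 0.0903 CPM. The wk3 ta-non-activated library held 11 *Ifit1bl1* UMIs (1.17 CPM), and the cultured libraries 752 UMIs (13.1 CPM) and 3631 UMIs (58.7 CPM). For each of the 5 genes both cultured libraries lay above the 3 fresh ones. In a library of pooled cells, fewer expressing cells and less RNA per cell cannot be told apart from such levels.

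**Figure D1:**
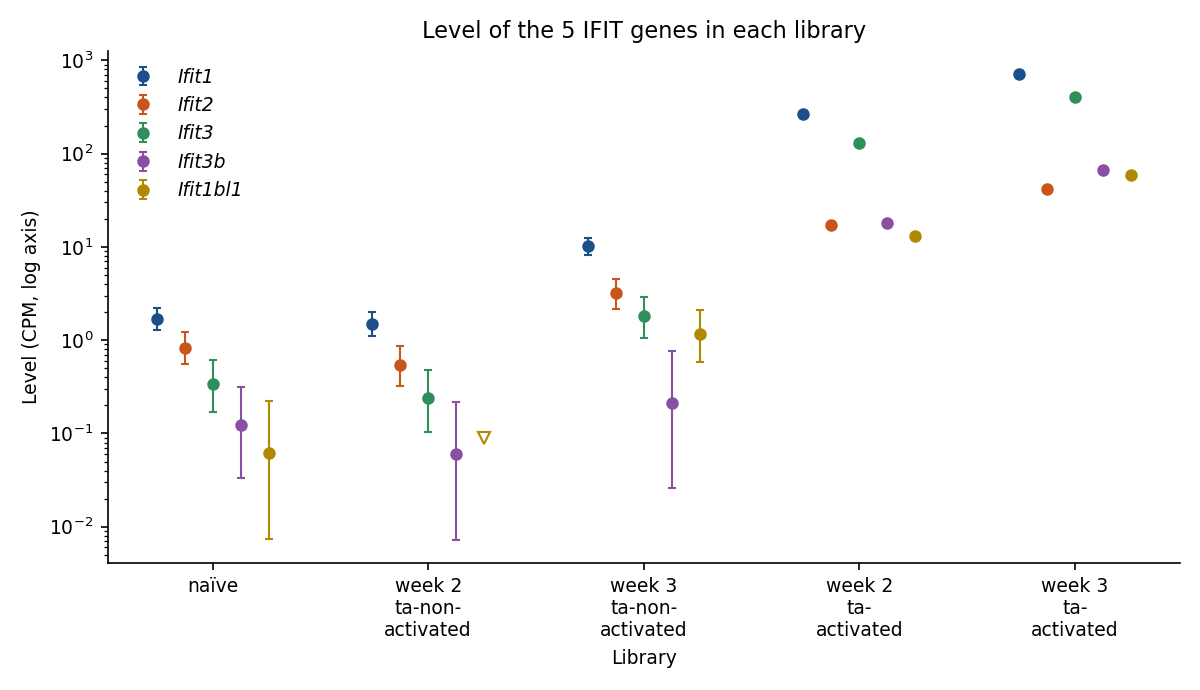
Level of each IFIT gene (CPM, log axis) in the 5 libraries; points are the values of 1 library, bars are 95% Poisson intervals that cover counting error only, and the open triangle marks the level of 3 counts where no UMI was found. All 5 genes lie between 13.1 and 707 CPM in the ta-activated libraries and at or below 10.2 CPM in the fresh ones.

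Within a week, the level of all 5 members together was 190.2-fold higher in the ta-activated than in the ta-non-activated library at wk2 (interval 152 to 241) and 77.1-fold higher at wk3 (65.9 to 90.9). The wk3 reference is the fresh library that held mostly cells with CD3 and TCR transcripts. Cells with 3 or more of those genes at full depth were then left out of every library. Counted so, they made up 26.3% of naïve, 14.9% and 62.4% of wk2 and wk3 fresh, and 24.7% and 16.1% of wk2 and wk3 cultured cells. These shares exceed those after thinning. Without such cells the ratio was 237 (184 to 311) at wk2 and 2479 (445 to 97913) at wk3, the latter against 1 fresh UMI, so the order of the weeks turned. With all cells, *Ifit3* had a ratio of 542 (275 to 1256) at wk2 and 225 (140.3 to 386) at wk3. The ratio of *Ifit3b* was 299.6 (82.7 to 2477) and 312 (86.2 to 2575), against only 2 fresh UMIs in each week. *Ifit1* was 178-fold higher (135 to 239.8) at wk2 and 69.2-fold higher (56.7 to 85.5) at wk3. *Ifit1bl1* was at least 145-fold higher at wk2, set against 3 counts in the fresh library, and 50.2-fold higher (28.0 to 100.6) at wk3. *Ifit2* differed least, with 32.0-fold (20.1 to 54.2) and 13.2-fold (9.22 to 19.6).

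Set against all genes on the log2(CPM + 1) scale, which understates changes of low genes, 5 of 5 members were 2-fold or more higher after culture in each week, where 17.5% of 11197 genes at wk2 and 18.7% of 11818 genes at wk3 were. At 16-fold or more, 3 members passed at wk2 and 4 at wk3, beside 0.545% and 0.787% of all genes. By the size of this ratio *Ifit1* ranked 5 and *Ifit3* ranked 6 at wk2, and *Ifit3* ranked 8 and *Ifit1* ranked 21 at wk3. These are single libraries with no test.

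The replicated comparison set the 2 ta-activated against the 2 ta-non-activated libraries with edgeR's quasi-likelihood test on summed counts. In this fit 0 of 5 members passed an adjusted p of 0.05, and 0.0% of 12643 genes were called higher. All 5 members had an unadjusted p under that value and were higher after culture, as were 9.32% of all genes. The log2 fold change of *Ifit3b* was 8.47 (SE 1.07, edgeR adjusted p = 0.243), that of *Ifit3* 8.16 (SE 1.29, adjusted p = 0.243) and that of *Ifit1* 6.39 (SE 1.17, adjusted p = 0.243). *Ifit1bl1* had a log2 fold change of 6.28 (SE 1.88, edgeR adjusted p = 0.256) and *Ifit2* one of 4.04 (SE 0.96, adjusted p = 0.244). Both cultured libraries lay above both fresh ones for each member, which held for 32.4% of the genes fitted. Among the 12643 genes the 5 members ranked 20 (*Ifit3b*), 24, 81, 88 and 228 by log2 fold change.

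The call depended on the method. DESeq2 called 1047 of 18230 genes, 563 of them higher after culture, and 4 of the 5 members were among those. Its adjusted p was 9.1e-10 for *Ifit1*, 0.00044 for *Ifit2*, 2.3e-14 for *Ifit3*, 5.4e-12 for *Ifit3b* and 0.166 for *Ifit1bl1*. In edgeR, leaving out the wk2 ta-non-activated library gave 1646 called genes, and leaving out the wk3 ta-non-activated library gave 513. In another fit, cells holding 3 or more CD3 and TCR genes at full depth were left out. The log2 fold changes were 8.55 for *Ifit1*, 6.21 for *Ifit2*, 10.35 for *Ifit3* and 10.04 for *Ifit3b* (edgeR adjusted p 0.138 to 0.162). *Ifit1bl1* then had no fresh UMI in either library, and its fitted value of 13.12 (edgeR adjusted p = 0.179) depends on the prior count.

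The members did not contribute equally, and their make-up differed between fresh and cultured cells. *Ifit1* gave 55.6%, 64.1% and 61.5% of the IFIT UMIs in the naïve, wk2 and wk3 fresh libraries and 59.9% and 55.2% in the cultured ones. *Ifit2* gave 27.3% of the IFIT UMIs in the naïve library (exact 95% interval 18.8 to 37.1), 23.1% (14.3 to 34.0) at wk2 and 19.2% (13.4 to 26.3) at wk3 without culture. After culture its share was 3.88% (3.64 to 4.12) and 3.29% (3.17 to 3.42). The share of *Ifit3* was 11.1%, 10.3% and 10.9% in the fresh libraries and 29.2% and 31.7% in the cultured ones. For both genes the fresh and cultured intervals did not overlap, from 78 to 156 IFIT UMIs in a fresh library. Intervals here and for the order below treat each UMI as independent. Yet 14 naïve, 17 wk2 and 13 wk3 fresh cells held 50% of the IFIT UMIs of their library. At wk3 the fresh make-up is mainly that of cells with 3 or more CD3 and TCR genes, which held 153 IFIT UMIs against 2 in the others.

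**Figure D2:**
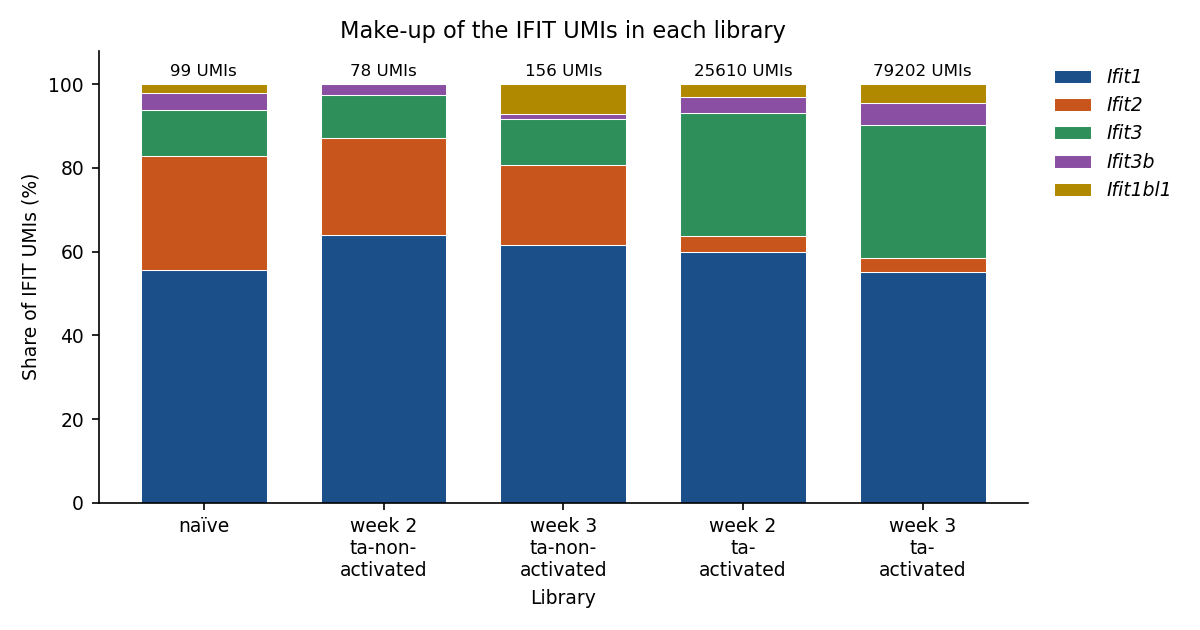
Share of the IFIT UMIs of each library (%) that each of the 5 genes contributed, with the number of IFIT UMIs above each bar. *Ifit2* takes 19.2% to 27.3% in the fresh libraries and 3.29% to 3.88% in the ta-activated libraries, while *Ifit3* takes 10.3% to 11.1% and 29.2% to 31.7%.

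The order of the members differed accordingly. In each fresh library *Ifit1* was followed by *Ifit2*, with intervals that did not overlap, and then by *Ifit3*, whose interval overlapped that of *Ifit2*. In the wk2 ta-activated library the order was *Ifit1*, *Ifit3*, *Ifit3b*, *Ifit2* and *Ifit1bl1*, with overlapping intervals for *Ifit3b* and *Ifit2* alone. At wk3 after culture it was *Ifit1*, *Ifit3*, *Ifit3b*, *Ifit1bl1* and *Ifit2*, with no overlap. The 3' chemistry counts a molecule once whatever its length, so these levels were not divided by length.

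Between the weeks, each member was higher at wk3 than at wk2 after culture. The ratio was 2.64 for *Ifit1*, 2.43 for *Ifit2*, 3.12 for *Ifit3*, 3.68 for *Ifit3b* and 4.48 for *Ifit1bl1*, and 2.87 (2.83 to 2.91) for all 5. On the log2(CPM + 1) scale 3.02% of 11277 genes were 2-fold or more higher in this direction. With 1 library a week, a difference between weeks cannot be told apart from a difference between libraries.

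Among the fresh libraries, the 5 members together stood at 3.06 CPM (2.48 to 3.72) in naïve ILC2s and 2.35 CPM (1.86 to 2.93) at wk2, a ratio of 0.768 (0.563 to 1.04). Only 1 of the 5 members, *Ifit1*, was at or above 1 CPM here. It was not 2-fold or more higher than naïve at wk2, where 17.6% of genes were. At wk3 the 5 members reached 16.6 CPM (14.1 to 19.4). That is 5.43-fold (4.2 to 7.06) the naïve level, and all 4 members at or above 1 CPM were 2-fold or more higher, beside 18.2% of all genes. Against the wk2 fresh library the ratio was 7.07 (5.36 to 9.41), with the same 4 members 2-fold or more higher, beside 21.3% of all genes. The naïve matrix names a later Cell Ranger version than the other 4. Its annotation, and whether reads in introns were counted, are not given in the sources used here, and the part of this in the ratios to naïve was not tested.

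The wk3 signal lay in cells with CD3 and TCR transcripts. Among wk3 ta-non-activated cells of 2000 UMIs or more, the 924 with 3 or more CD3 and TCR genes held 153 IFIT UMIs (20.9 CPM, interval 17.8 to 24.5). The other 571 cells held 2 IFIT UMIs (1.04 CPM, 0.126 to 3.75). All 11 *Ifit1bl1* UMIs and all 29 *Ifit2* UMIs counted there were in the first set. When cells with 3 or more of these genes at full depth were left out of every library, the family stood at 0.567 CPM, from 1 UMI, in the wk3 ta-non-activated library. It stood at 2.23 CPM in the wk2 one. The wk3 fresh level was then 0.254 of the wk2 level (0.00633 to 1.47) and 0.172 of the naïve level (0.00431 to 0.991), so both ratios turned from above to below 1. The cultured libraries kept 529 CPM and 1406 CPM without these cells. At full depth 24.7% and 16.1% of wk2 and wk3 cultured cells held 3 or more CD3 and TCR genes, against 4.25% and 1.86% after thinning. Which cells were left out thus depends on depth, and the part of depth in these levels was not tested. After thinning, wk2 cultured cells with 3 or more such genes stood at 689 CPM and the others at 439 CPM. At wk3 after culture these levels were 1147 and 1282 CPM.

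The family was then followed cell by cell, with each cell thinned to 2000 UMIs so that depth was equal. At least 1 IFIT UMI was found in 34 of 6147 naïve cells (0.553%, exact 95% interval 0.383 to 0.772), in 17 of 1809 wk2 (0.940%, 0.548 to 1.5) and in 34 of 1495 wk3 ta-non-activated cells (2.27%, 1.58 to 3.16). After culture the share was 46.4% (1309 of 2822 cells, 44.5 to 48.2) at wk2 and 73.1% (2714 of 3714 cells, 71.6 to 74.5) at wk3. At full depth the shares were 0.970%, 3.07% and 5.12% in the fresh libraries and 74.5% and 93.2% in the cultured ones. No cell type in these sorted libraries is known to lack IFIT genes, so the level that free RNA would give was not measured.

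By member, the thinned share in the wk2 and wk3 ta-activated libraries was 37.2% and 57.2% for *Ifit1*, and 23.7% and 48.8% for *Ifit3*. The others were found less often, at 5.63% and 13.5% for *Ifit3b*, 4.85% and 8.0% for *Ifit2*, and 4.82% and 12.3% for *Ifit1bl1*. In the fresh libraries no member exceeded 1.47% of cells. *Ifit3b* had 0 of 6147 naïve cells, which allows a share of up to 0.0488% of cells with a UMI at this depth, and *Ifit1bl1* had 0 of 1809 cells at wk2, which allows up to 0.166%. At full depth 4 of 6389 naïve cells (0.0626%) held *Ifit3b*. Of 1823 wk2 fresh cells 2 held *Ifit3b* and 0 held *Ifit1bl1*.

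**Figure D3:**
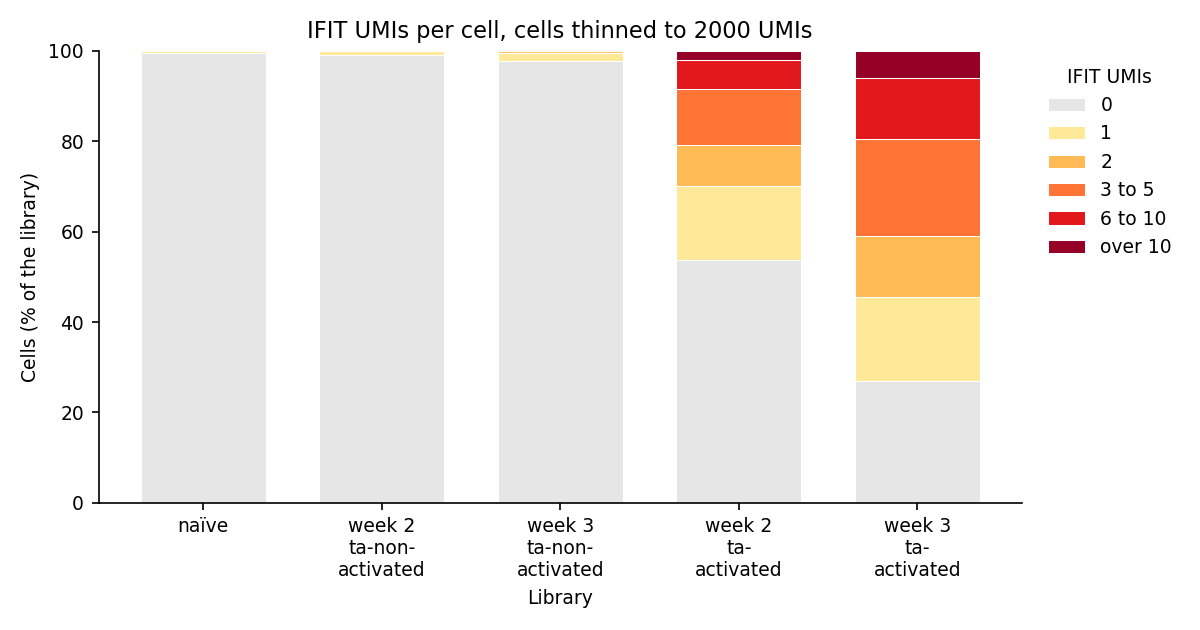
Share of cells (%) by the number of IFIT UMIs in a cell thinned to 2000 UMIs, for each library. In the fresh libraries 97.7% to 99.4% of cells have none, and in the ta-activated libraries 53.6% and 26.9% have none while 2.02% and 5.95% have over 10.

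The transcripts of cultured cells were neither even nor limited to a small subset. At wk2 after culture 16.5% of thinned cells held 1 IFIT UMI, 9.0% held 2, 12.3% held 3 to 5, 6.52% held 6 to 10 and 2.02% held over 10. At wk3 the same classes held 18.7%, 13.4%, 21.5%, 13.6% and 5.95% of cells. The 10% of cells with most IFIT UMIs held 53.1% of them at wk2 and 40.3% at wk3. The family had a mean of 1.57 and 3.22 UMIs per cell. Of 6 reference genes, those of the nearest mean were *Il7r* at wk2, with 1.44 UMIs per cell and 35.6% in the top 10% of cells, and *Ltb* at wk3, with 2.73 UMIs and 33.6%. At full depth 302 of 2895 cells (10.4%) held 50% of the IFIT UMIs at wk2 and 560 of 3822 cells (14.7%) did at wk3.

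The variance of IFIT UMIs over their mean, which is 1 for counts spread at random, was 4.79 at wk2 and 5.35 at wk3. For single genes at the same depth it was 1.89 and 1.86 for *Il7r* (the IL-7 receptor chain), 1.42 and 1.33 for *Gata3* (the ILC2 lineage factor), 1.23 and 1.19 for *Ptprc* (CD45), and 3.11 and 3.10 for *Ltb* (lymphotoxin beta). Of the other two reference genes, *B2m* gave 2.42 and 1.53 and the far more abundant *Actb* 3.78 and 3.51. The summed UMIs of the other interferon targets gave 9.66 and 8.02, at far higher means of 19.7 and 25.8 UMIs per cell. Their top 10% of cells held 24.7% and 22.1% of these UMIs, against 53.1% and 40.3% for the family. The variance over the mean can rise with the mean, so it does not rank genes of unlike means by evenness. *Ifit1* alone gave 3.63 and 4.25, at means of 0.914 and 1.74 UMIs per cell. *Ifit3* gave 2.48 and 2.28, and the 3 less abundant members 1.32 to 1.84.

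Members were found in the same cells. At wk2 after culture, 43.8% of cells with an *Ifit1* UMI also held *Ifit3*, against 11.9% of cells without *Ifit1*, and at wk3 the shares were 62.7% and 30.3%. The same held for *Ifit2*: 75.2% of wk2 and 83.5% of wk3 cells with *Ifit2* held *Ifit1*, against 35.2% and 54.9% of the others. Across the thinned cells of 1 library, Pearson's r between 2 members ran from 0.10 to 0.38 over 2822 cells at wk2 and from 0.084 to 0.43 over 3714 cells at wk3. Both ranges are headed by *Ifit1* with *Ifit3*, and all points share a library and a fixed depth.

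IFIT transcripts followed the other interferon targets of the cell. Cells were put in bins by their thinned UMIs of the listed targets, with the 5 members not among them. In the wk2 ta-activated library IFIT UMIs were found in 3 of 114 cells (2.63%) with 1 to 2 target UMIs, in 6.81% of 235 cells with 3 to 5, in 18.3% of 416 cells with 6 to 10 and in 59.5% of 2040 cells with over 10. In the wk3 ta-activated library the last 3 bins gave 10 of 50 cells, 39.3% of 280 and 76.8% of 3376 cells. Cells with over 10 target UMIs held 97.0% and 98.1% of the IFIT UMIs, and they made up 72.3% and 90.9% of the cells.

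Above 10 target UMIs the share went on climbing over bins that were set after these values had been seen. At wk2 it was 29.8% of cells with 11 to 15 target UMIs and 92.9% of those with over 40, and at wk3 it was 53.8% and 95.8%. In the topmost bin of wk3 *Ifit1* was found in 84.5% and *Ifit3* in 83.0% of 476 cells, and each of the other members in 25.4% to 27.7%. Below 31 target UMIs the wk3 share lay above the wk2 share in each of these bins, and at 31 to 40 it was 87.0% (84.0 to 89.6) against 84.7% (80.3 to 88.5).

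In fresh cells the share was also higher at over 10 target UMIs, from few cells. In the naïve library 3 of 14 cells with over 10 target UMIs held IFIT, against 0.311% of the 3219 with 1 to 2. At wk2 without culture these were 8 of 54 cells against 2 of 820, and at wk3 10 of 32 against 4 of 675. The lowest bins had no such order, with 7 of 1933 naïve cells and 4 of 282 wk3 cells holding IFIT at 0 target UMIs. Single fresh cells carried much of the signal: 1 naïve cell held 20 of the 99 IFIT UMIs of its library at full depth. Of the 10 wk3 ta-non-activated cells with 3 or more IFIT UMIs, 10 held 3 or more CD3 and TCR genes. *Gata3* was found in 4 of these 10 cells and *Il1rl1*, which encodes the ST2 of the sort gate, in none. *Il1rl1* is not found in every cell: after culture, 159 of 1620 cells with 3 or more IFIT UMIs held it at wk2 and 1546 of 3164 at wk3.

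**Figure D4:**
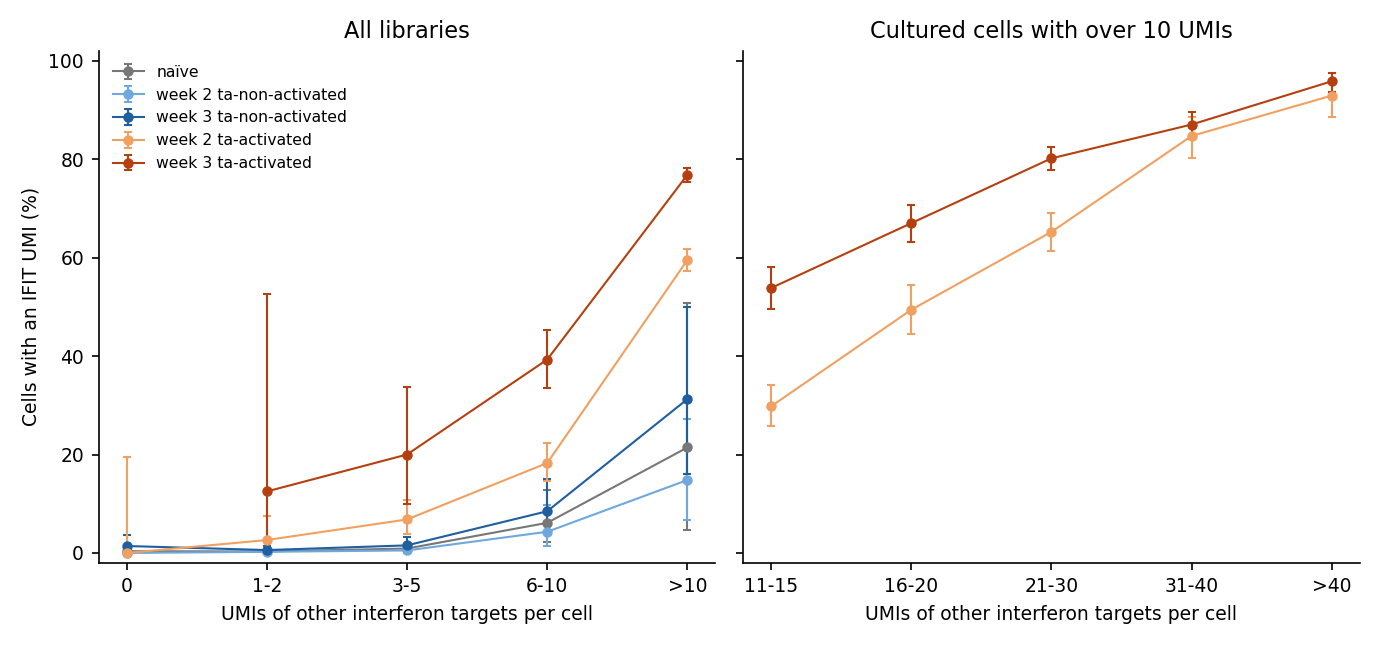
Share of cells with an IFIT UMI (%) against the UMIs of other interferon targets in the same cell, for all libraries (left) and for ta-activated cells with over 10 such UMIs (right); cells were thinned to 2000 UMIs, bars are exact 95% intervals, and bins with fewer than 8 cells are not drawn. The share climbs from 2.63% to 92.9% over the wk2 ta-activated bins from 1-2 to >40 UMIs and from 39.3% to 95.8% over the wk3 bins from 6-10 to >40.

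Depth and the cell cycle moved with IFIT within the cultured libraries. When cells were put in 3 equal groups by their UMIs before thinning, the share with IFIT was 69.5%, 46.7% and 23.0% from the shallowest to the deepest group at wk2, and 82.7%, 79.6% and 56.9% at wk3. Cells with 2 or more of 12 cell-cycle genes held IFIT in 27.6% of 689 cases at wk2 and 54.4% of 652 at wk3, against 52.5% of 2133 and 77.0% of 3062 other cells. These cycling cells were deeper, with medians of 24515 and 21774 UMIs against 11403 and 11582. Within the shallowest group the shares were 52.9% (35.1 to 70.2) of cycling and 70.1% (67.0 to 73.1) of other cells at wk2, and 61.8% (49.2 to 73.3) and 83.9% (81.7 to 86.0) at wk3. In the middle group they were 36.1% (29.5 to 43.1) and 49.6% (45.9 to 53.3) at wk2, and 65.3% (55.2 to 74.5) and 80.8% (78.4 to 83.1) at wk3. Within the deepest group they were 21.8% (18.0 to 25.9) of cycling and 24.1% (20.4 to 28.1) of other cells at wk2, and 51.1% (46.6 to 55.7) and 60.7% (57.1 to 64.2) at wk3. The share of cycling cells was the lower one in each group, with intervals that overlapped in the shallowest and the deepest group of wk2. Depth was not equal within the groups. Cycling and other cells had medians of 15703 and 13574 UMIs in the middle group of wk2, and of 5263 and 7944 UMIs in the shallowest of wk3.

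Within each of the 3 depth groups the tie to the other targets remained. Among the deepest wk2 cells, IFIT was found in 61.5% of those with over 20 target UMIs and in 14.2% of those with 20 or fewer. Depth was not equal there, with medians of 25300 and 33426 UMIs. Among the shallowest, with nearly equal median depths of 7300.5 and 7472 UMIs, the shares were 85.1% and 42.3%. At wk3 these pairs were 73.1% and 42.4% in the deepest group (medians 23132 and 25957 UMIs). They were 92.1% and 64% in the shallowest (7909 and 7791 UMIs).

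The genes most like the family across cultured cells were ranked by Pearson's r with the summed IFIT UMIs, taking the lower r of both libraries, among 4094 genes found in at least 5% of cells of each. The first 10 were *Iigp1*, *Samhd1*, *Rsad2*, *Isg15*, *Trim30c*, *Ifi203*, *Parp14*, *Igtp*, *Ly6a* and *Slfn2*, with a lower r of 0.36 to 0.25, and 5 of them were on the lists below. *Rsad2* (viperin) had r of 0.35 at wk2 and 0.51 at wk3, and *Isg15*, a ubiquitin-like modifier, 0.32 and 0.49. *Iigp1*, an immunity-related GTPase, headed the list with 0.37 and 0.36. Its level was 334 CPM at wk2 and 105 CPM at wk3 after culture, the reverse of the order of all 5 IFIT genes. The lowest r was that of *Vim* (vimentin), at -0.24 and -0.17.

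Few interferon transcripts were present in the libraries. Of 12 ligand genes, 9 had no UMI in any library, *Ifnb1* and each of the listed *Ifna* genes among them. *Ifng*, the type II interferon, was the sole ligand fitted. Its levels were 7.87 CPM in the naïve, 3.61 and 21.9 CPM in the wk2 and wk3 ta-non-activated and 9.43 CPM in the wk2 ta-activated library. The wk3 ta-activated library, highest in IFIT, held no *Ifng* UMI, where 3 counts would be 0.0485 CPM. The log2 fold change of *Ifng* was -1.40 (SE 2.25, edgeR unadjusted p = 0.564).

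Of 9 receptor and kinase genes 8 were fitted, 6 of them with a positive log2 fold change, and 0 had an unadjusted p under 0.05. Their median log2 fold change was 0.19, against -0.02 over all genes fitted. The kinases *Jak2* and *Tyk2* had the highest values in the list, 1.14 (SE 0.99) and 1.0 (SE 0.55). *Ifngr1* and *Ifngr2*, the chains of the type II receptor, had the lowest, -2.30 (SE 1.12) and -0.47 (SE 0.51). *Ifnar1* and *Ifnar2*, the chains of the type I receptor that were named after their values had been seen, stood at 0.07 (SE 0.46) and 0.14 (SE 0.39). Of the genes named here, only *Tyk2* changed in the same direction in both weeks. From fresh to cultured, *Jak2* went from 212 to 190 CPM at wk2 and from 37.6 to 449 CPM at wk3. *Ifngr1* went from 32.2 to 45.5 CPM at wk2 and from 419 to 44.9 CPM at wk3. The part of the wk3 fresh cells with CD3 and TCR transcripts in these values was not tested.

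All 7 transcription factors had a positive log2 fold change, 4 of them with an unadjusted p under 0.05, and the median was 1.5. Over all genes fitted, 6218 of 12643 had a positive value and 16.8% had an unadjusted p under 0.05 in either direction. *Irf7*, which amplifies interferon responses, was at 6.79, 6.83 and 26.6 CPM in the naïve, wk2 and wk3 fresh libraries and at 221 and 449 CPM after culture, a log2 fold change of 4.3 (SE 0.79). *Stat2* had 3.15 (SE 0.37), while *Irf3* (0.29, SE 0.36) and *Irf8* (0.72, SE 1.16) had the smallest changes. The direction of *Irf8* differed between the weeks, from 7.34 to 22.2 CPM at wk2 and from 6.28 to 1.78 CPM at wk3. Among the 4 feedback genes *Usp18* (4.32, SE 1.24) and *Isg15* (3.81, SE 1.12) had an unadjusted p under 0.05. *Socs3* (1.42, SE 0.86) and *Socs1* (0.25, SE 0.98), inhibitors of JAK signalling, did not.

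Of 40 interferon targets 39 were fitted, all with a positive log2 fold change and 32 with an unadjusted p under 0.05, beside the 9.32% of all genes that were higher with such a p, and their median was 3.13. The largest changes were those of *Ifi204* (6.92, SE 0.73), a DNA sensor of the p200 family, and *Ifi27l2a* (6.45, SE 1.66). The smallest were those of *Gbp2* (1.34, SE 1.06) and *Ifi47* (1.53, SE 0.68), GTPases that also respond to interferon gamma. None of these genes passed the adjusted threshold in edgeR. *Ifit3b* and *Ifit3* lay above all 39 targets, *Ifit1* and *Ifit1bl1* within the upper part of their range and *Ifit2* above their median.

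**Figure D5:**
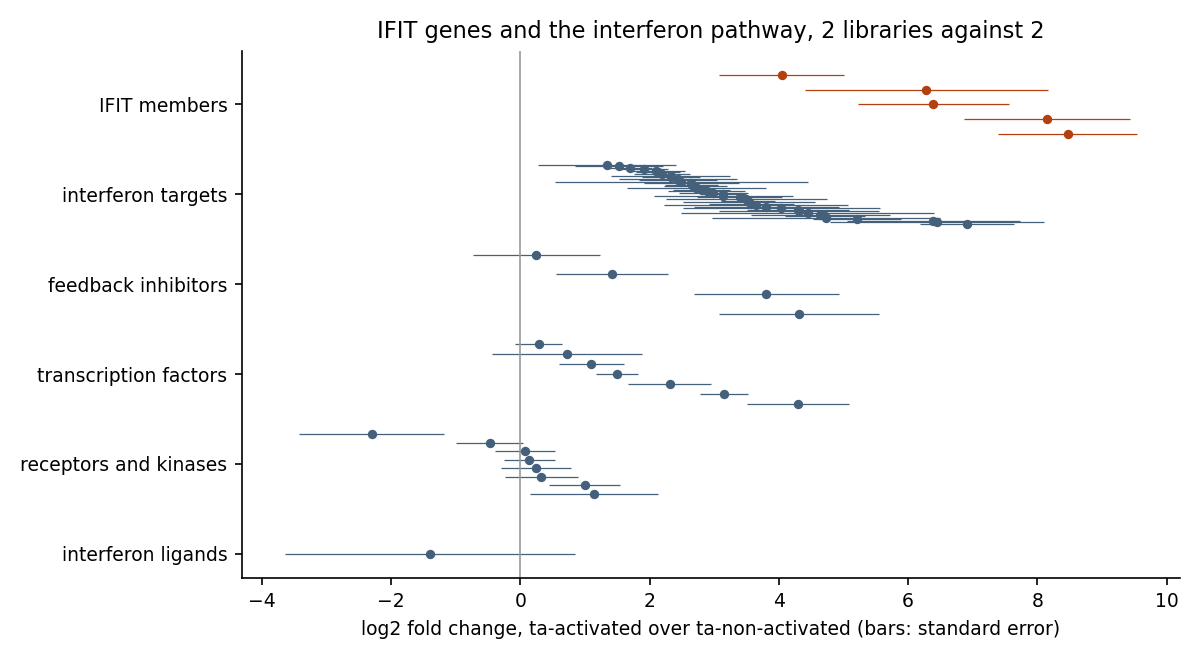
Log2 fold change of the IFIT genes and of the listed interferon pathway genes, ta-activated over ta-non-activated (2 libraries against 2, edgeR); each point is a gene, bars are standard errors, and *Isg15*, *Usp18* and *Irf7* appear under more than 1 list. The 5 IFIT genes lie between 4.04 and 8.47, the 39 targets between 1.34 and 6.92, and the receptors and kinases on both sides of 0.

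The genes on either side of the cluster differed less between fresh and cultured cells, or not in one direction. *Fas*, a death receptor gene, was at 59.2 and 5.64 CPM in the wk2 and wk3 ta-non-activated libraries and at 42.7 and 72.5 CPM after culture, so the groups overlapped. *Ch25h*, a cholesterol hydroxylase gene, had 0 and 11 UMIs before and 0 and 1 after culture. *Lipa*, a lysosomal lipase gene to the left of *Ifit2*, was at 10.1 and 13.6 CPM in the wk2 and wk3 ta-non-activated libraries and at 16.6 and 19.9 CPM after culture. *Pank1*, to the right of *Ifit1*, was at 2.44 and 4.90 CPM before and 5.27 and 4.58 CPM after culture. *Kif20b*, a mitotic kinesin gene farther right, was higher in both cultured libraries, at 39.9 and 34.2 CPM against 12.7 and 18.2 CPM. *Slc16a12*, next to *Ifit1*, had no UMI in any library. *Ifit1bl2*, which lies inside the cluster and has the *Ifit1* stretch as its own promoter, had 0 UMIs in both ta-non-activated libraries and 1 in the naïve. It reached 27 UMIs (0.471 CPM) at wk2 and 114 UMIs (1.84 CPM) at wk3 after culture, far below *Ifit1*.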

How the data were processed

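RNA of sorted lung ILC2s was measured in 5 libraries. The values deposited by the authors are UMI counts for every gene and barcode, not normalized. The submitters' processing notes name Cell Ranger 3.0.2, Seurat 3 and GRCm38, while the naïve matrix header names Cell Ranger 6.0.0. Totals of 9394957 to 61830293 UMIs per library set the precision. Cells were barcodes with 200 or more genes detected and less than 5% mitochondrial UMIs (16530 of 18628), with no doublet removal. Counts were summed per library. Ta-activated and ta-non-activated libraries, 2 against 2, were compared with edgeR 4.0.16 (filterByExpr, TMM, quasi-likelihood test, Benjamini-Hochberg over all genes, threshold 0.05), checked on simulated data. Each library pooled a group of mice at its own week, so p-values measure the spread between these libraries, week included. Levels have exact Poisson and shares exact Clopper-Pearson 95% intervals, for counting error only. Cells were thinned to 2000 UMIs by a seeded draw, and the intervals do not cover the spread between draws. Alternatives were DESeq2 1.42.0, library totals without TMM, no low-count filter, a block for the week, all 5 libraries, other barcode filters and other thinning. Further ones left out each library in turn, or all cells with 3 or more CD3 and TCR genes at full depth. Python 3.11.15 with scipy 1.17.1 was used, and R 4.3.3. Members and lists were chosen with earlier results of these data known. All 5 members are named. Other genes are named where they have the largest or smallest change of a list (up to 4 a list), are among the 10 most like the family, or neighbour the cluster, with exceptions stated. Bins above 10 target UMIs, the split at 20 and the depth groups within it were chosen after seeing the data.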

Additional observations from a re-analysis of the deposited data

Results flagged for a closer look

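Barcodes outside the filter, which entered only the alternatives with other barcode filters, also held IFIT UMIs after culture. In the 684 left-out barcodes of the wk2 ta-activated library the 5 members stood at 323 CPM (95% Poisson interval 313 to 333), and in the 583 of the wk3 ta-activated library at 979.97 CPM (960.0 to 1000.3). The left-out barcodes of the fresh libraries held 1 IFIT UMI among 564 naïve barcodes and none among 30 at wk2 and 237 at wk3. Groups of 1 or 2 libraries were too small for a check on outlying samples, and no member had opposite directions in the 2 weeks.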

How the results depend on the processing

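All 5 members kept a positive log2 fold change in all 12 alternative fits. The count of called genes, 0 in edgeR (2120 at an unadjusted p under 0.05), was 1047 with DESeq2 and ran from 0 to 1646 when each library was left out. With DESeq2 the values that passed the threshold were 6.38 for *Ifit1*, 4.02 for *Ifit2*, 8.10 for *Ifit3* and 8.46 for *Ifit3b*. Over the libraries left out in turn, where a lone library is assumed to vary like the other arm, *Ifit1* ran from 5.58 to 8.08, *Ifit2* from 3.27 to 5.51, *Ifit3* from 7.14 to 9.85, *Ifit3b* from 7.21 to 9.14 and *Ifit1bl1* from 4.72 to 13.77, the last without the wk3 ta-non-activated library, where no fresh UMI was left and the value depends on the prior count. Without the wk2 ta-non-activated library *Ifit1*, *Ifit2* and *Ifit3* had 5.63, 3.27 and 7.26. Without the wk3 one they had 8.08, 5.51 and 9.85, each time against 1 fresh library. The block for the week, a pairing of the libraries of 1 week, gave 6.69, 4.25, 8.31, 8.12 and 6.87 for *Ifit1*, *Ifit2*, *Ifit3*, *Ifit3b* and *Ifit1bl1* with 0 genes called (1505 at an unadjusted p under 0.05) and adjusted p from 0.312 to 0.334. Libraries with the same number share the tumour week, and their deviations had r = -0.05 over 12643 genes, from 2 pairs only. The cause of these differences was not tested.

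Shares of cells with IFIT depended on depth by construction. With no thinning they were 0.970%, 3.07%, 5.12%, 74.5% and 93.2% (naïve, wk2 and wk3 fresh, wk2 and wk3 cultured), and at 1000 UMIs 0.30%, 0.275%, 1.26%, 34.7% and 57.8%. Another seed gave 0.374% in the naïve and 0.553% in the wk2 fresh library. A mitochondrial limit of 10% gave 0.383% and 1.52% in the wk2 and wk3 fresh libraries. That limit only adds cells (1826 and 1583 in place of 1809 and 1495), and the barcodes outside the main filter held no IFIT UMI there. The thinning was drawn anew for each set of cells, so these lower shares reflect the draw and not the limit. Without cells of 3 or more CD3 and TCR genes at full depth, the shares were 0.520% and 0.193% there and 49.98% at wk2 after culture. The top 10% of cells held 41.1% and 33.0% of the IFIT UMIs without thinning at wk2 and wk3, 56.7% and 43.4% at 1000 UMIs and 50.3% and 38.3% at 5000 UMIs. The level of the family after culture was 426 and 1242 CPM with all barcodes and 429 and 1245 CPM at a 10% mitochondrial limit. It was 529 and 1406 CPM without cells of 3 or more CD3 and TCR genes at full depth. In that setting the wk3 fresh level was 0.567 CPM and the wk3 log2 ratio 11.28 in place of 6.27. Of the levels of single members and their ratios of cultured to fresh cells under other cell filters, 65 stayed within counting error and 33 did not, and no ratio of cultured to fresh cells changed direction. The ratios of the wk3 fresh library to the other fresh ones did turn without cells of 3 or more CD3 and TCR genes at full depth. For all 5 members together they went from 7.07 to 0.254 against wk2 and from 5.43 to 0.172 against naïve. Fresh levels of *Ifit3b* and *Ifit1bl1* rest on 0 to 11 UMIs, so smaller differences were not detectable at this depth.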
